A study of Mus with 6 samples.

Results

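The miRNAs described here are 4 that mouse cells make without the nuclear enzyme Drosha: mmu-miR-320-3p and mmu-miR-484 from capped precursors, and mmu-miR-877-5p and mmu-miR-702-3p from mirtrons (written below without the species prefix). They were chosen by name, as rows of the deposited count tables, and all 4 of 4 names were present in each of the 6 libraries, among 929 known mature miRNAs listed in every table. Most miRNAs begin as a hairpin inside a long transcript, which Drosha and its partner DGCR8 cut free before Dicer trims it to the mature form. A capped precursor such as that of miR-320 needs no such cut, because transcription itself starts at the first base of the hairpin and the cap stays on its 5′ end. A mirtron is a short intron that splicing releases and that then folds into a hairpin, so its ends are set by the splice sites of its host gene. Both kinds still need Dicer.

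The samples were adipocytes of wild-type (WT) mice of the C57BL/6 strain. The labels name 3 control libraries, Ctrl1 to Ctrl3, and 3 others, CIH1 to CIH3, from chronic intermittent hypoxia, in which oxygen falls and recovers again and again. They give no age, duration or fat depot. They also do not say whether the libraries of a group stem from separate mice or cultures, so the spread behind each p-value may be technical. Levels are given as CPM, the count of a miRNA scaled to an equal total in every library, and a read spans a whole mature miRNA, so no length scaling was applied. Total counts ran from 6291101 to 11264151, at which 3 counts, taken as the floor, correspond to 0.266 to 0.477 CPM. Floors and intervals on single libraries cover counting error only.

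The libraries numbered 3 of both groups stood apart. They list 1186 names, 1116 of them known miRNAs, against 1053 names with 1024 known in the libraries numbered 1 and 2. Whether they were processed separately was not tested. Correlations of log2(CPM + 0.5) were taken across 257 miRNAs with a mean of at least 10 CPM, which are not independent replicates. They were 0.972 to 0.994 among the 4 libraries numbered 1 and 2, and 0.889 to 0.905 between these and the libraries numbered 3. Ctrl3 and CIH3 correlated at 0.899, inside the latter range. The libraries numbered 3 were thus not a uniform set by this measure. Each comparison is therefore given for all 6 libraries, for those numbered 1 and 2 alone, and for the pair of Ctrl3 and CIH3, which holds 1 library a group and so has no replicate check. Of markers of other cell types, the 4 leukocyte miRNAs had summed levels of 0.363 to 4.29 CPM in the Ctrl libraries and 0.266 to 3.27 CPM in the CIH libraries, with miR-142a-3p at 0 in 4 of 6 libraries. The erythroid miRNAs, 4 of 5 of them listed in the tables, reached 54.8 to 153.9 CPM in the Ctrl libraries against 21.0 to 135.8 CPM in the CIH libraries, and the epithelial ones 76.3 to 408.5 against 18.6 to 169.6 CPM. The 2 neuronal miRNAs reached 51.0 to 181 against 50.8 to 96.2 CPM, the 3 of muscle 12.6 to 111 against 11.6 to 38.7 CPM, the 2 endothelial ones 33.8 to 136.9 against 73.1 to 103.9 CPM, and the hepatocyte marker miR-122-5p 2.16 to 4.12 against 2.09 to 5.59 CPM. The part of these other cell types in the results was not tested. Fewer cells of a type and less RNA per cell cannot be told apart in such bulk samples. miR-143-3p, miR-103-3p and miR-378a-3p, which are abundant in fat but not specific to it, summed to 103501 to 186166 CPM in the Ctrl libraries and 67368 to 145917 CPM in the CIH libraries. By library number this sum, like the erythroid and epithelial ones, was lower in CIH in all 3 pairs. The neuronal and leukocyte sums were too, but hardly so in some pairs. The neuronal sum was 50.97 CPM in Ctrl3 and 50.78 CPM in CIH3. The leukocyte sum was 2.16 CPM in Ctrl2 and 2.09 CPM in CIH2, and in pair 3 it was at the floor of 3 counts in both libraries. How many of all miRNAs were lower in all 3 pairs was not counted. Within the lists some miRNAs went the other way. In pair 3 the lower epithelial sum came from miR-205-5p, at 67.8 CPM in Ctrl3 and 1.86 CPM in CIH3. There miR-200a-3p, miR-200b-3p, miR-200c-3p and miR-203-3p were higher in CIH3, the last at 7.55 against 6.66 CPM. The erythroid miR-486a-5p was higher in CIH in pairs 1 and 2, at 29.3 against 24.5 CPM and 16.2 against 15.1 CPM. In pair 3 miR-378a-3p stood at 38662 CPM in Ctrl3 and 5624 CPM in CIH3. The other fat miRNAs differed less there, with miR-143-3p at 57127 against 55147 CPM and miR-103-3p at 7712 against 6596 CPM.

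The genes of the 4 miRNAs lie on 4 chromosomes, in the positions of a RefSeq table of GRCm38.p6. Mir320 (chr14:70443510-70443591) is separated by 38 bases from Polr3d, which encodes a subunit of RNA polymerase III, and lies within no other gene. Mir484 (chr16:14159626-14159692) also lies within no other gene, between Marf1 and Nde1. Mir877 (chr17:35960730-35960814) lies within the span of Abcf1, a gene of translation initiation, and Mir702 (chr5:136991433-136991541) within that of Plod3, which encodes a collagen lysyl hydroxylase. The table gives no exons and no strands, so the intronic position of the mirtrons was not tested here.

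The 4 miRNAs differed widely in level and held the same order in every library, with miR-320-3p first, then miR-484, miR-877-5p and miR-702-3p. Together they took 0.0530% of Ctrl1, 0.0581% of Ctrl2 and 0.0190% of Ctrl3. Their share was 0.0481% of CIH1, 0.0406% of CIH2 and 0.0507% of CIH3. The capped pair outnumbered the mirtron pair 10.7-fold in Ctrl3 and 47.8-fold in CIH3, with 22.7-fold to 33.7-fold in the other 4 libraries. Among all known miRNAs, miR-320-3p ranked between 79 and 104 and miR-484 between 101 and 149. miR-877-5p ranked between 183 and 248, and miR-702-3p between 415 and 594. The ranges of miR-320-3p and miR-484 over the 6 libraries overlapped, so only the order within each library separates these neighbours.

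**Figure D1:**
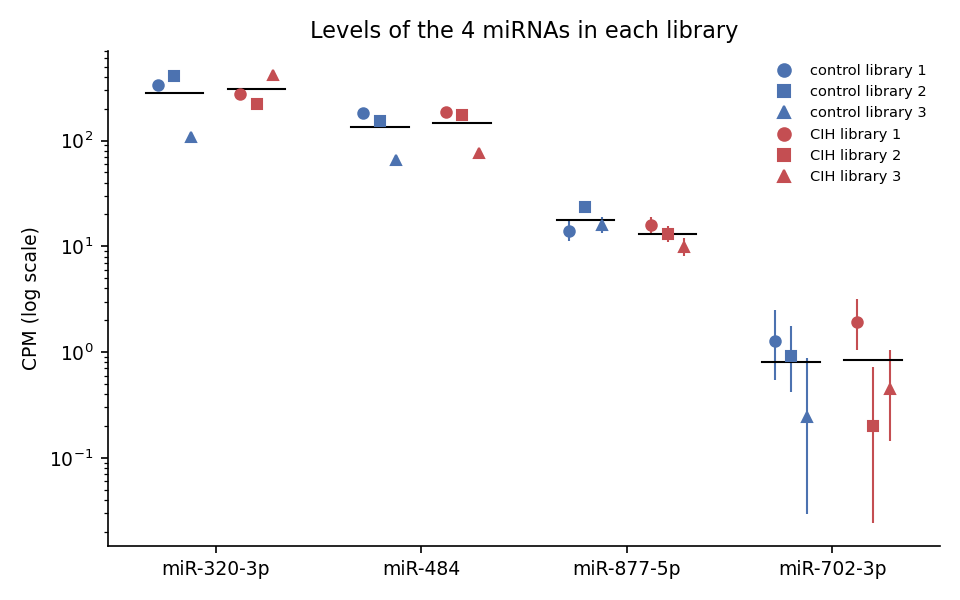
CPM (log scale) of the 4 miRNAs in each of the 6 libraries; symbols mark the library number, colours the group, vertical lines the exact 95% Poisson interval of the count and horizontal lines the group mean. For miR-320-3p and miR-484 the lowest control point is Ctrl3, and for none of the 4 do the groups separate.

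mmu-miR-320-3p, reported to affect insulin signalling in adipocytes, had a level of 332 CPM in Ctrl1, 405 CPM in Ctrl2 and 108 CPM in Ctrl3. CIH1 held 277 CPM, CIH2 219.7 CPM and CIH3 421 CPM. The lowest and the highest values both came from libraries numbered 3, and the groups overlapped. The control mean was 282 ± 154 CPM (SD, n = 3) and the CIH mean 306 ± 104 CPM (SD, n = 3), a difference well inside the spread.

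By library number, miR-320-3p was lower in CIH in both pairs of the libraries numbered 1 and 2 and higher in the pair numbered 3. The CIH level was 0.834 times the control level in pair 1 (95% counting interval 0.784 to 0.887) and 0.543 times in pair 2 (0.515 to 0.572). In pair 3 it was 3.88 times the control level (3.62 to 4.18). The last ratio depends on scaling, because the median of 257 miRNAs was itself 0.93 higher in CIH on the log2(CPM + 0.5) scale in that pair, against -0.08 and -0.16 in pairs 1 and 2. After TMM scaling, which sets libraries to a common level from the bulk of miRNAs, the log2 differences of miR-320-3p were -0.20, -0.65 and 1.15 in pairs 1, 2 and 3, so the direction in each pair stayed the same. The summed endothelial markers had the same direction as miR-320-3p in each pair, at 136.9 CPM in Ctrl1 against 103.9 CPM in CIH1, 92.9 against 73.1 CPM in pair 2, and 33.8 against 100.1 CPM in pair 3. The median of the 257 miRNAs by CPM had these directions too, and the other marker lists did not. The part of the endothelial markers in the values of miR-320-3p was not tested.

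mmu-miR-484 has been reported to act on mitochondrial fission. Its level was 183 CPM in Ctrl1, 152 CPM in Ctrl2 and 65.4 CPM in Ctrl3, against 187 CPM in CIH1, 173 CPM in CIH2 and 75.6 CPM in CIH3. Both libraries numbered 3 were low, and within each number control and CIH lay close together. By CPM it was higher in CIH in all 3 pairs, by 1.02-fold (95% counting interval 0.945 to 1.11), 1.14-fold (1.06 to 1.22) and 1.16-fold (1.04 to 1.29), and 95 of the 456 miRNAs tested (20.8%) were likewise higher in CIH in all 3 pairs. With TMM scaling the log2 difference in pair 3 turned to -0.59, beside 0.09 and 0.42 in pairs 1 and 2.

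The capped pair therefore did not keep a fixed ratio. miR-320-3p exceeded miR-484 by 1.82-fold in Ctrl1, 2.67-fold in Ctrl2 and 1.66-fold in Ctrl3. In CIH1 it did so by 1.48-fold, in CIH2 by 1.27-fold and in CIH3 by 5.56-fold. This ratio needs no scaling between libraries. It was lower in CIH in pairs 1 and 2 and higher in pair 3.

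mmu-miR-877-5p, the more abundant mirtron product, had a level of 13.99 CPM in Ctrl1, 23.6 CPM in Ctrl2 and 15.98 CPM in Ctrl3. CIH1 held 15.8 CPM, CIH2 13.1 CPM and CIH3 9.94 CPM. The group means of 17.8 ± 5.05 and 13.0 ± 2.94 CPM (SD, n = 3 each) differed by less than the control SD, and the ranges overlapped. In pair 1 the counting interval of the CIH to control ratio spanned equality (1.13, interval 0.849 to 1.51). In pairs 2 and 3 the CIH level was 0.558 (0.447 to 0.694) and 0.622 (0.479 to 0.806) times that of control. With TMM scaling the log2 differences of miR-877-5p were 0.23, -0.59 and -1.44 in pairs 1, 2 and 3, so the size in pair 3 depended on scaling.

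mmu-miR-702-3p sat near the limit of detection, with 8 counts in Ctrl1, 9 in Ctrl2 and 2 in Ctrl3, and 14 in CIH1, 2 in CIH2 and 5 in CIH3. Ctrl3 and CIH2 were at or under the floor of 3 counts. Its level ran from 0.242 to 1.27 CPM in the control libraries and from 0.199 to 1.91 CPM in the CIH libraries. The ratio of CIH to control had counting intervals that spanned equality in all 3 pairs (0.587 to 4.13, 0.0226 to 1.04 and 0.300 to 19.3), so no difference was detectable at this depth.

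**Figure D2:**
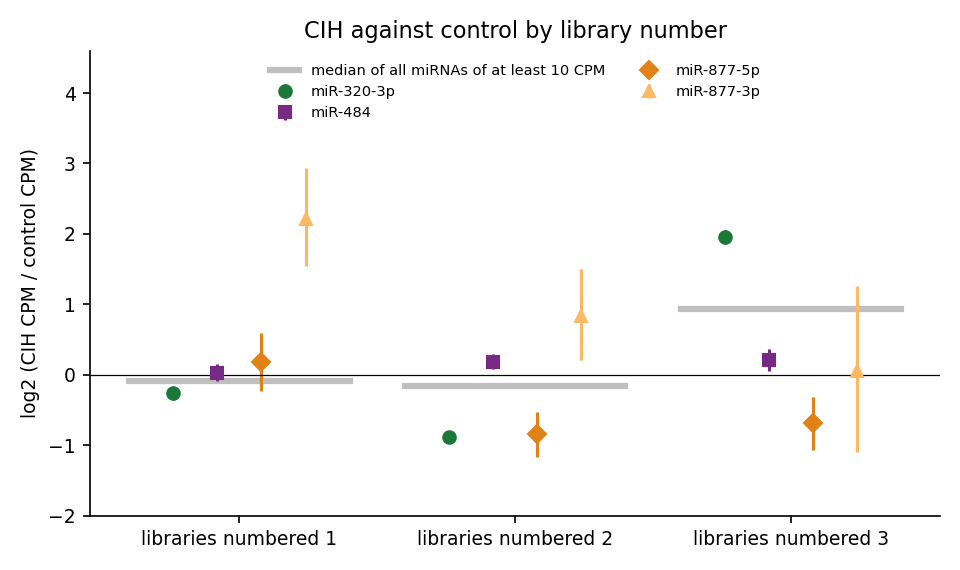
log2 ratio of CIH to control CPM for libraries numbered 1, 2 and 3 (x axis), for miR-320-3p, miR-484 and both arms of miR-877, with exact 95% counting intervals; grey bars mark the median of 257 miRNAs of at least 10 CPM. miR-320-3p lies below 0 in pairs 1 and 2 and above it in pair 3, where the grey bar stands at 0.93.

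In the test over all 6 libraries (edgeR quasi-likelihood, Benjamini-Hochberg over 456 miRNAs) none of the members passed, and neither did any other miRNA (0 of 456, percent called 0). At an unadjusted p under 0.05, 23 of the 456 were found by edgeR, 37 by DESeq2 and 21 by limma-voom, the last 2 also with 0 calls. Of the 4 members 3 passed the filter on low counts, all but miR-702-3p. The log2 difference, CIH minus control, was 0.07 for miR-320-3p (SE 0.46, 95% interval -1.005 to 1.14, adjusted p = 0.988) and 0.08 for miR-484 (SE 0.50, -1.09 to 1.25, adjusted p = 0.988). The sign of both depended on the scaling: with upper-quartile factors, which moved the median of all miRNAs from 0.04 to -0.08, they were -0.06 and -0.02. For miR-877-5p it was -0.66 (SE 0.49, -1.79 to 0.47, adjusted p = 0.899). The median over the 3 was 0.07, against that of 0.04 over all 456. The intervals leave room for a 2-fold change in either direction for the capped pair, so the values do not show that these miRNAs were alike in both groups.

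Within the 4 libraries numbered 1 and 2, all 4 members were tested and none passed, where edgeR called 43 of 459 miRNAs (9.37%, 19 higher and 24 lower; 7 higher and 27 lower when only total counts were used for scaling). miR-320-3p had the smallest adjusted p of the 4, at a log2 difference of -0.44 (SE 0.22, 95% interval -0.90 to 0.01, adjusted p = 0.243). That value was -0.64 without Ctrl1 and -0.15 without Ctrl2. Both CIH libraries lay below both controls, which was also the case, in either direction, for 227 of the 459 (49.5%). miR-484 differed by 0.26 (SE 0.23, -0.22 to 0.73, adjusted p = 0.579), miR-877-5p by -0.26 (SE 0.35, -0.98 to 0.46, adjusted p = 0.733) and miR-702-3p by -0.04 (SE 0.92, -1.93 to 1.84, adjusted p = 0.973). The median over the 4 was -0.15, against -0.03 over all 459. The interval of miR-702-3p spans a 3-fold change in either direction.

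**Figure D3:**
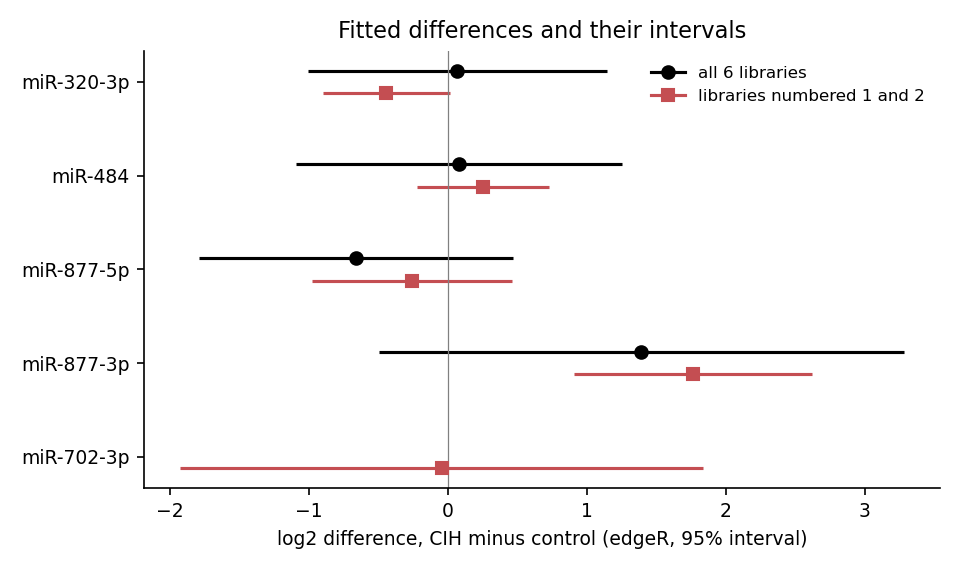
Fitted log2 difference, CIH minus control, with its 95% interval, for the 4 miRNAs and for miR-877-3p, in the fit of all 6 libraries (black) and of the libraries numbered 1 and 2 (red); miR-702-3p was filtered out of the first. Of the intervals shown only that of miR-877-3p in the libraries numbered 1 and 2, from 0.91 to 2.62, lies clear of 0.

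The difference of CIH from control in pair 3, less that in the libraries numbered 1 and 2, was fitted as an interaction, added with these directions known. On the log2 scale it was 1.59 for miR-320-3p, -0.85 for miR-484 and -1.23 for miR-877-5p. Ctrl3 and CIH3 are each alone in their cell of this model, which thus holds no measure of how far such libraries vary. A call from it, as made for 138 of 456 miRNAs (30.3%) and for miR-320-3p, therefore does not show that the groups differed otherwise in pair 3 than in the others. The level in the libraries numbered 3 against the others, with group in the model, was called for 114 of 456 miRNAs (25%) and for 0 of the 3 members. miR-484 was at -0.90 (SE 0.34, adjusted p = 0.0985), miR-320-3p at -0.05 (SE 0.43) and miR-877-5p at 0.03 (SE 0.44).

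A hairpin yields a mature miRNA from either arm, and the arm not chosen as a member was examined from a list of other names made without Drosha. For miR-320 nearly all reads came from the 3p arm. The 5p arm had 0 counts in Ctrl1 and Ctrl2, 1 in Ctrl3 and CIH3, and 2 in CIH1 and CIH2, against 895 to 4741 counts on the 3p arm. The highest of these shares was 0.112% of the reads of both arms (Wilson 95% interval 0.0197% to 0.629%). Where the count was 0, the exact 95% Poisson interval reached up to 0.586 CPM in Ctrl1 and 0.379 CPM in Ctrl2. miR-702-5p had 0 to 3 counts in every library.

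The arms of miR-877 did not keep one ratio. miR-877-3p had a level of 3.50 CPM in Ctrl1, 3.39 CPM in Ctrl2 and 1.45 CPM in Ctrl3, against 16.2 CPM in CIH1, 6.07 CPM in CIH2 and 1.51 CPM in CIH3. CIH1 and CIH2 were above every control, and CIH3 was not. Within the libraries numbered 1 and 2 it rose by 1.77 on the log2 scale (SE 0.42, 95% interval 0.91 to 2.62, edgeR adjusted p = 0.00542), while miR-877-5p from the same intron was at -0.26. The call was lost without Ctrl1 (1.72, adjusted p = 0.0631) and without CIH1 (1.10, adjusted p = 0.153). DESeq2 and limma-voom gave adjusted p-values of 0.0237 and 0.0344, and the adjusted p over all its alternatives ran from 1.28e-06 to 0.153. When all 6 libraries were fitted, miR-877-3p differed by 1.39 (SE 0.81, -0.50 to 3.28, adjusted p = 0.885), a value that was 0.54 without CIH1 and 1.89 without CIH3, and in the pair numbered 3 alone it was -0.58 after TMM scaling.

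As a share of the reads of both arms, which needs no scaling, miR-877-3p took 20% in Ctrl1, 12.6% in Ctrl2 and 8.33% in Ctrl3. It took 50.6% in CIH1, 31.6% in CIH2 and 13.2% in CIH3. The share was higher in CIH in all 3 pairs, and in pairs 1 and 2 the Wilson 95% intervals did not overlap (13.6% to 28.4% against 44.3% to 57.0%, and 9.11% to 17.2% against 25.5% to 38.5%). In pair 3 they did (4.83% to 14% against 8.39% to 20.1%). The means were 13.6% ± 5.90 in the Ctrl libraries and 31.8% ± 18.7 in the CIH libraries (SD, n = 3 each), and the groups overlapped, since CIH3 lay below Ctrl1. A two-sided exact permutation test without regard to pairs gave p = 0.2 (0.625 after adjustment over 5 precursors), but 3 libraries against 3 allow no p under 0.1, so this test could not have passed 0.05. Without CIH1 the difference of 18.2 percentage points became 8.75, and without CIH3 it became 27.5.

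The same share was computed for 121 precursors with at least 50 reads over both arms in every library, as a description chosen after the values of miR-877 were seen. The median change in the share of the 3p arm, in either direction, was 0.654, 0.510 and 0.938 percentage points in pairs 1, 2 and 3. For miR-877 it was 30.6, 19.0 and 4.84 points, which ranked 1, 2 and 32 of 121. Many of the 121 have nearly all reads on 1 arm, and their share can hardly move. The mean share of the lesser arm was 22.7% for miR-877. At 41.6% for miR-335 and 23.3% for miR-34b, the changes were -26.7 and 25.8 points in pair 1, and -22.8 and 1.01 points in pair 2. For miR-3068, at 47.4%, they were 1.17 and -2.21 points. In pairs 1 and 2 the shift in miR-877 thus ranked high, but some precursors with both arms in use moved nearly as far. It rested on 110 to 262 reads a library.

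**Figure D4:**
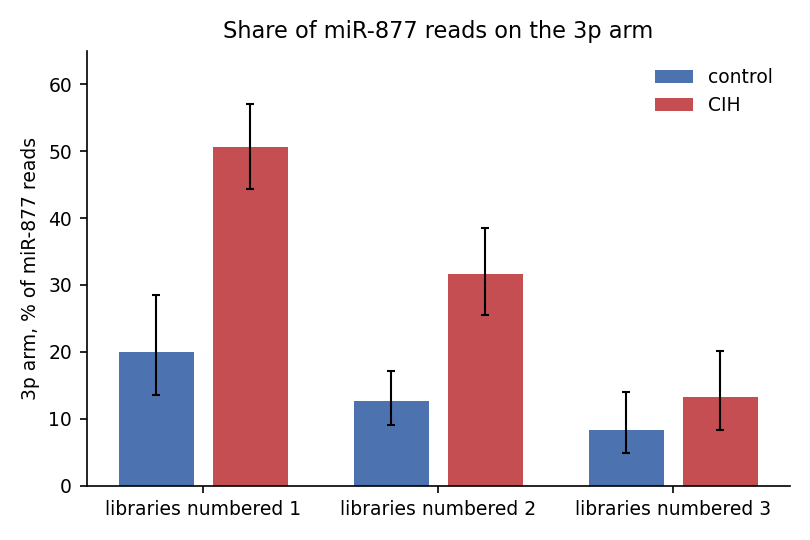
Share of miR-877 reads that came from the 3p arm (percent of both arms), by library number, control in blue and CIH in red, with Wilson 95% intervals that cover counting error only. The CIH bar is higher in each pair, from 50.6% against 20% in pair 1 to 13.2% against 8.33% in pair 3.

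Of the other names on the list of 11, 8 were present in the tables and 5 passed the filter. miR-877-3p rose within the libraries numbered 1 and 2 and 0 of the 5 fell there (background 9.37%), and over all 6 libraries 0 of 5 passed. miR-1224-5p, from a further mirtron in the span of Vwa5b2, had 4 counts at most in any library. The arms of miR-664 and miR-1839, whose precursors resemble small nucleolar RNAs, were the other members tested. miR-1839-5p was the most abundant of all names made without Drosha here, with a control mean of 752 ± 182.5 CPM and a CIH mean of 709 ± 121 CPM (SD, n = 3 each; log2 difference -0.23, SE 0.37, adjusted p = 0.986).

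miR-664-5p was the only name of the list whose CPM ranges did not overlap between the groups, from 18.9 to 20.03 CPM in the Ctrl libraries and from 20.2 to 30.1 CPM in the CIH libraries, as was found for 51 of 456 miRNAs (11.2%). Its fitted log2 difference was 0.05 (SE 0.46, adjusted p = 0.988), and turned negative with other scalings, at -0.08 with RLE size factors. Its partner miR-664-3p varied more, from 3.995 to 19.2 CPM in the Ctrl libraries and from 6.21 to 19.4 CPM in the CIH libraries.

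The 4 members were at most moderately correlated across the libraries, and no background of other miRNA pairs was computed. Pearson correlations of log2(CPM + 0.5) over the 6 libraries, which share their depth and the split of the libraries numbered 3, ran from -0.06 (miR-320-3p with miR-877-5p) to 0.61 (miR-484 with miR-702-3p). The miRNAs most like miR-320-3p were miR-322-3p (r = 0.973), miR-322-5p (0.970) and miR-16-5p (0.961), out of 256 candidates of at least 10 CPM. Those most like miR-484 were miR-22-3p (0.993), miR-22-5p (0.987) and miR-676-5p (0.976). For miR-877-5p they were miR-96-5p (0.947), miR-205-5p (0.763) and miR-103-3p (0.748), and for miR-702-3p, with counts near the floor, miR-330-5p (0.881), miR-1981-5p (0.872) and let-7b-5p (0.866). With 6 libraries and 256 candidates such values describe these libraries alone.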

How the data were processed

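The 6 deposited tables, 1 per adipocyte library, list mature miRNAs with whole-number read counts, not normalized by the authors. Headers of 3 tables call the column FPKM, but its values there are whole numbers whose totals differ between libraries, and they were taken as counts. The tools featureCounts 1.5.0-p3 and DESeq 1.8.3 and the build GRCm38 appear in the submitters' processing notes without a role. How reads were trimmed, aligned and shared between similar miRNAs is not given in the sources used here. No other name held counts identical to those of a member.

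The 929 known names found in all tables, which hold at least 99.97% of each library, were tested with edgeR 4.0.16 in R 4.3.3 (TMM, filterByExpr, robust quasi-likelihood F test, group alone in the model, Benjamini-Hochberg adjustment at 0.05). Alternatives were DESeq2 1.42.0, limma-voom (limma 3.58.1), other scalings, no filter, a replicate block, and leaving out the 10 most abundant miRNAs or each library. The fits were also run on simulated counts. These lacked the split of the libraries numbered 3, so they do not show how the fits perform on these data. Shares were compared with scipy 1.17.1. Members, lists and tests were chosen with earlier results of these data known. Named were the members, the list of 11 other names, and the 3 miRNAs most correlated with each member.

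Within each group, libraries differed by more than counting noise (chi-square of at least 135 for each degree of freedom). Deviations from the group means correlated at 0.35, 0.39 and 0.40 between Ctrl and CIH libraries of equal number. Each is over 0.1, so numbers were treated as pairs in the block. This check cannot show a pairing by number, because the split of the libraries numbered 3 enters every deviation from a group mean. Between libraries numbered 3 and those numbered 1 or 2 of the other group the correlations were -0.44 to -0.29. Numbers 1 and 2 were not separated, since Ctrl1 correlated at 0.43 with CIH2 and at 0.35 with CIH1. The labels state no pairing, so pairs by number are an assumption. Mature miRNA sequences were not used here.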

Additional observations from a re-analysis of the deposited data

Results flagged for a closer look

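For 2 of the names described, the fitted interaction of group and set of libraries put pair 3 apart from the libraries numbered 1 and 2. For miR-320-3p it was 1.59 on the log2 scale, with lower CIH levels in pairs 1 and 2 and a higher one in pair 3. For miR-877-3p it was -2.51, with higher CIH levels in pairs 1 and 2. In pair 3 miR-877-3p had 1.51 CPM in CIH3 against 1.45 CPM in Ctrl3. After TMM scaling, which the fit used, its log2 difference there was -0.58. Pair 3 has 1 library a group and the interaction was called for 30.3% of all 456 miRNAs, so whether these differences exceed the usual variation of Ctrl3 and CIH3 was not tested.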

How the results depend on the processing

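No member passed the threshold under any alternative run, and signs near 0 moved. Over 6 libraries the log2 difference of miR-320-3p was -0.056 with upper-quartile factors and -0.44 in the libraries numbered 1 and 2 alone. That of miR-484 was -0.0336 with RLE size factors, -0.0338 with DESeq2, -0.037 with limma-voom, -0.018 with upper-quartile factors and -0.0224 with the set as a term (added after seeing the data). That of miR-664-5p was -0.083 with RLE, -0.0815 with DESeq2, -0.092 with upper-quartile factors and -0.015 without the 10 most abundant. That of miR-1839-3p was -0.073 with RLE, -0.075 with DESeq2, -0.10 with upper-quartile factors, -0.022 without the 10 most abundant, -0.0052 with no filter and -0.13 in the libraries numbered 1 and 2. With the replicate block miR-484 was at -0.024, and the block changed no call of a member or listed name. The count of calls over 6 libraries was 0 in 15 of 16 alternatives and 43 in the libraries numbered 1 and 2 alone.

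Leaving out 1 library at a time over the 6 gave -0.19 to 0.39 for miR-320-3p, -0.18 to 0.41 for miR-484, -0.86 to -0.42 for miR-877-5p, 0.54 (without CIH1) to 1.89 (without CIH3) for miR-877-3p, -0.40 to 0.41 for miR-664-3p, -0.071 to 0.42 for miR-664-5p and -0.19 to 0.29 for miR-1839-3p. In the libraries numbered 1 and 2 it gave -0.64 to -0.15 for miR-320-3p, -0.64 to 0.32 for miR-877-5p, -2.09 to 0.84 for miR-702-3p, 1.10 to 2.25 for miR-877-3p, -0.33 to 0.43 for miR-664-3p and -0.32 to 0.072 for miR-1839-3p, where the spread of the library left alone is taken from the opposite group. The count of calls there fell to 14 when Ctrl1 was left out, to 9 for Ctrl2 and to 23 for CIH1, and was 97 for CIH2. Scaling by total counts alone moved the median log2 difference of all miRNAs there from -0.034 to -0.17, and over 6 libraries from 0.042 to 0.15. The cause of these changes was not tested. Depth limits miR-702-3p, the 5p arms of miR-320 and miR-702, and miR-1224-5p.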
